A study of Mus musculus with 6 samples.

Results

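The cytochrome P450 genes of families 1 to 4 were examined in the distal jejunum of mice lacking Hnf4a in the intestinal epithelium. Members were all gene symbols made of Cyp, a digit from 1 to 4, a letter and a number, without Cyp2b10 and without pseudogenes. Each gene was read from its brightest probe set that carried exactly 1 symbol, brightest meaning the highest mean over all arrays. This gave 52 genes in 19 subfamilies, out of 18193 genes measured. RNA of each of 6 mice, 3 mutants and 3 control littermates, was hybridised to its own Affymetrix array, and all mice were killed at 7 months of age. Mutants carried an intestinal epithelial deletion of Hnf4a made with a Cre transgene under the 12.4-kb villin promoter. All animals bear the strain label B6.129X1(FVB)-Hnf4atm1.1Gonz/J, were kept pathogen-free and were injected with ketamine (300 mg/kg) and xylazine (40 mg/kg) before death. The labels describe the controls as littermates and do not state their genotype further. The villin promoter is active in the epithelium along the whole intestine, whereas the RNA came from whole jejunal biopsies, so muscle, stroma and immune cells were measured too.

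P450 enzymes are heme proteins of the endoplasmic reticulum that insert oxygen into their substrates, with electrons passed on by P450 reductase and cytochrome b5. Family 1 is known for polycyclic aromatic substrates and for induction through the aryl hydrocarbon receptor (AhR). Families 2 and 3 oxidise drugs, steroids and arachidonic acid and are controlled in liver by the receptors CAR and PXR, while family 4 hydroxylates fatty acids and eicosanoids at their end carbon. In the small intestine these enzymes sit mainly in villus enterocytes and act on swallowed compounds before they reach the liver. HNF4A, a nuclear receptor, is known from liver to bind and activate many P450 genes.

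The promoters of 4 genes around which the results turn are given first. Of these, 3 hold an exact match to the same HNF4 motif. The last, Cyp3a25, a neighbour of Cyp3a11, holds no exact match, and near matches were not searched. Of the 4, Cyp2c68 alone passed the test for a difference between the groups. RefSeq windows (build GRCm38.p6) from 250 bases before to 50 bases after the gene start were matched for 42 of the 52 genes, in 48 windows. Each is written 5′ to 3′ in the direction of the gene. Capitals mark matches, on either strand, to the HNF4 motif CAAAGTCCA, the AhR motif TNGCGTG and the letters TATAAA.
Cyp2c68 (minus strand, chr19:39741052-39741351): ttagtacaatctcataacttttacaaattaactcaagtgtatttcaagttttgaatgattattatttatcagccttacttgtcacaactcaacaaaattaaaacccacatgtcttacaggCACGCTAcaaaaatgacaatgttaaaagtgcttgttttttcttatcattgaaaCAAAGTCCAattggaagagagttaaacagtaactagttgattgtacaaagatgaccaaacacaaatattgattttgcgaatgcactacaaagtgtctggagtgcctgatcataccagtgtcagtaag
Cyp2c65 (plus strand, chr19:39060756-39061055): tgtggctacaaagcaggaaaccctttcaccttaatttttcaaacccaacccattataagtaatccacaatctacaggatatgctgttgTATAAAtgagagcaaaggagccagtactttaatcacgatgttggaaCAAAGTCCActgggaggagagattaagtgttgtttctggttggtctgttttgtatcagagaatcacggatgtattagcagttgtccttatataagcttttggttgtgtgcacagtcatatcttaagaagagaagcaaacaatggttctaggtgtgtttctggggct
Cyp3a11 (minus strand, chr5:145879805-145880104): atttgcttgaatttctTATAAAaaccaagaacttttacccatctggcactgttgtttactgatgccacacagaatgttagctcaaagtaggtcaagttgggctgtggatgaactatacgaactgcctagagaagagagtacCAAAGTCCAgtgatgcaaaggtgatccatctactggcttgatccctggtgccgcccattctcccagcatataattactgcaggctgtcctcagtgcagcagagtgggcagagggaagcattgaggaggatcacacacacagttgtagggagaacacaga
Cyp3a25 (minus strand, chr5:146009568-146009867): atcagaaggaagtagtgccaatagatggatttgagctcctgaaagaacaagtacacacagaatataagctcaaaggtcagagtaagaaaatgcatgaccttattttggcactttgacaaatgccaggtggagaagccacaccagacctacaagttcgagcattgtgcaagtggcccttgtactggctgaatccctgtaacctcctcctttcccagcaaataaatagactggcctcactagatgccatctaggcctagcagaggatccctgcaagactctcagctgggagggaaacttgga

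The motif CAAAGTCCA began 77 bases before the start in Cyp2c68, 116 bases before it in Cyp2c65 and 109 bases before it in Cyp3a11. It was also present in Cyp2c70 and Cyp3a16, so that 5 of the 42 genes held it. By window this was 5 of 48, against 156 of all 32851 RefSeq windows of the same length (0.475%). Genes of 1 subfamily share promoter letters (75.5% identity between Cyp3a11 and Cyp3a16), so these are not independent occurrences. Its first 7 letters, CAAAGTC, which overlap every match of the longer motif, were found in 11 of the 42 genes. By window this was 12 of 48, against 4.44% of all windows. The AhR motif was found only in Cyp2c68 among the 42 genes, 130 to 124 bases before its start on the other strand, and in 5.07% of all windows. The letters TATAAA, on either strand and anywhere in the window, were present in 18 of the genes. By window this was 18 of 48, against 13.6% of all windows. Those marked above began 162 bases before the start in Cyp2c65 and 234 bases before it in Cyp3a11. The HNF1 motif and the direct repeat 1 motif of nuclear receptors had no exact match in the 42 genes. They were in 0.0091% and 0.0396% of all windows, too rare for their absence to set these genes apart. Near matches were not searched for any motif, so a missing match does not mean a missing binding site. A match is a description of the letters in the window, and no binding was measured here. Cyp2d22 had no entry among these windows.

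Values are log2 signals as deposited. Signal strength differs between probe sets for technical reasons, so levels are compared between animals for 1 gene and not between genes. The median gene had a mean of 5.42 over the 6 arrays, and 19 of the 52 P450 genes lay above it and are called bright here, while 33 lay below it and are called dim. The lowest bright gene, Cyp2u1, had a mean of 5.90 and the highest dim gene, Cyp2j9, a mean of 4.48. Of the bright genes, 1 (Cyp1a1) exceeded the median gene only through the controls. Of the dim genes, 26 lay below the array median on all 6 arrays, where signal is close to background. Markers of intestinal epithelium were present on all arrays, with Vil1 between 12.54 and 12.67 in mutants and between 12.66 and 12.85 in controls, while the hepatocyte marker Alb lay between 2.89 and 3.22 in mutants and between 3.06 and 3.20 in controls.

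P450 genes that differed in the mutants were mostly lower. Cyp2c68 and Cyp2d22 fell, and no member rose (limma's moderated test, adjusted p under 0.05 over all genes). Over all 18193 genes, 0.33% were lower and 0.198% higher by the same rule, 0.528% in all. At an unadjusted p under 0.05, 13 members were lower, against 6.85% of all genes, and 2 were higher, against 5.24% of all genes. All 3 mutants lay below all 3 controls in 19 members, against 10.2% of all genes, and above them in 5 members, against 6.93% of all genes. The median log2 difference, mutant minus control, was -0.06 over all 52 members and -0.01 over all genes. Among the 19 bright members it was -0.33, with 14 of them below 0 (54.8% of bright genes), and among the 9096 genes brighter than the median gene it was -0.02. Of these bright members 9 were lower at an unadjusted p under 0.05, against 10.2% of bright genes, and 2 were higher, against 7.19%. All mutants lay below all controls in 11 of them, against 13.6% of bright genes, and above in 2, against 8.55%. Without Cyp1a1, chosen for omission after its values were seen, 8 of 18 were lower and 2 higher at that p, 10 had all mutants below all controls, and the median was -0.27. In the 33 dim members the median was -0.02. Because the biopsies were bulk tissue, fewer cells that express a gene and less RNA per cell cannot be told apart in any of these values.

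**Figure D1:**
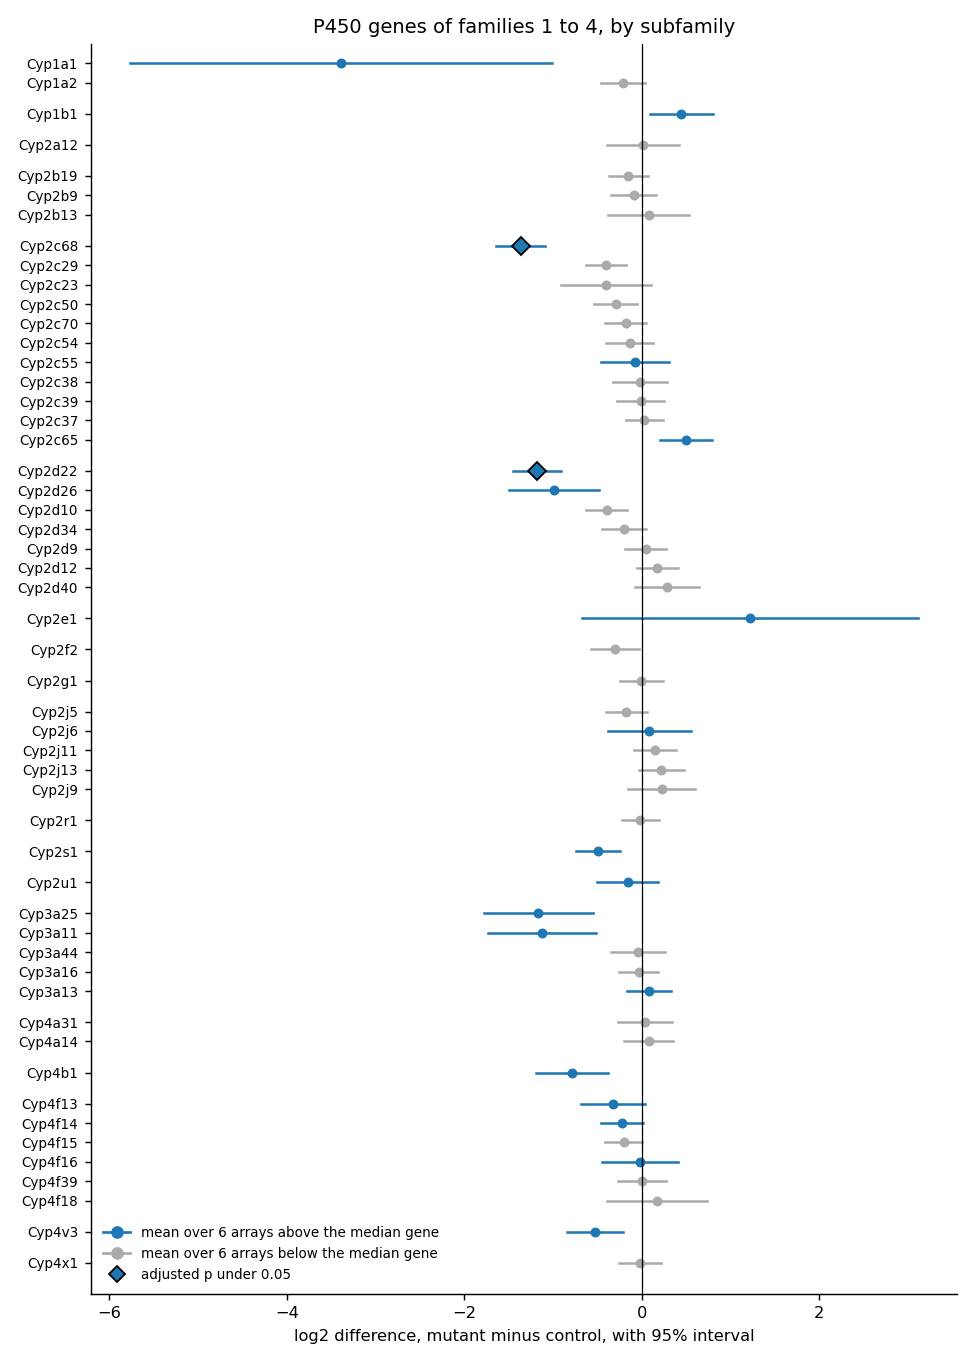
Log2 difference, mutant minus control, with its 95% interval from limma for each of the 52 P450 genes, grouped by subfamily, n = 3 mutants and 3 controls. Blue genes lie above the median gene in mean signal and grey genes below it; diamonds mark Cyp2c68 at -1.36 and Cyp2d22 at -1.18, the genes that passed the test.

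In the Cyp1 family, Cyp1a1 showed the lowest difference of all members, and it did not pass the test. Cyp1a1, which oxidises polycyclic aromatic compounds and is the classic target of AhR, read 5.97, 5.26 and 3.30 in mutants 1, 2 and 3, against 7.25, 6.79 and 10.66 in controls 1, 2 and 3. All mutants lay below all controls, but the controls themselves spread over several log2 units, with control 3 far above both others. The difference was -3.39 ± 1.03 SE (limma, adjusted p = 0.242, 95% interval -5.77 to -1.02). Without control 3 it was -2.18 and without mutant 3 it was -2.62. The value of mutant 3 lay below its array median, so the size of the difference is uncertain. Cyp1a2, known from liver, was dim, between 3.13 and 3.30 in mutants and between 3.31 and 3.52 in controls.

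Control 3, the array with the highest Cyp1a1, also held pancreatic transcripts. The summed signal of the 6 measured acinar markers, on the log2 scale, was 10.6 in control 3, while it lay between 6.77 and 7.03 in mutants and was 6.98 and 6.99 in both other controls. All 6 acinar markers had a negative difference and 0 passed the test. The ileal gene Fabp6 was 3.37 in control 3, against 9.57, 10.03 and 9.80 in mutants 1, 2 and 3, and 9.15 and 6.67 in controls 1 and 2. The part of these in the Cyp1a1 values was not tested.

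Cyp1b1, known from stromal cells and acting on oestradiol and aromatic hydrocarbons, went the other way. It read 6.43, 6.77 and 7.04 in mutants, against 6.31, 6.35 and 6.24 in controls. Each mutant exceeded each control, with a difference of 0.45 ± 0.15 SE that did not pass the test (limma, adjusted p = 0.294). A dimmer Cyp1b1 probe set differed by 0.67, also with each mutant above each control, though its controls lay below their array medians. The dimmest differed by -0.14, with all mutants below all controls. It read 2.92 to 3.04 in mutants and 3.06 to 3.15 in controls, below the array median on every array. The 3 probe sets thus disagree in direction only through the one closest to background. Fibroblast markers had a median difference of 0.19, with 5 of 6 above 0 and 0 past the test. The log2 of their summed signal was 11.9 to 12.4 in mutants and 11.9 to 12.2 in controls.

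**Figure D2:**
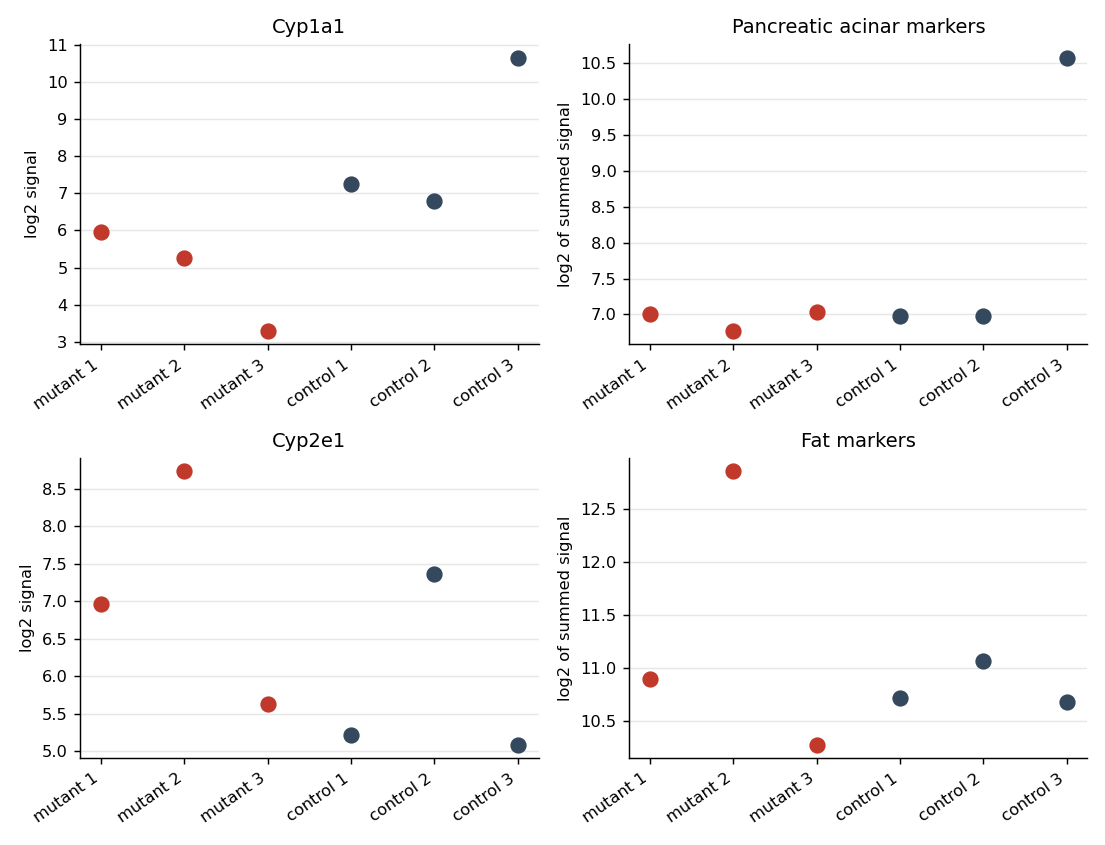
Log2 signal of Cyp1a1 and Cyp2e1 (left) and log2 of the summed signal of pancreatic acinar and fat marker genes (right) for each animal, mutants in red and controls in dark blue. Cyp1a1 and the acinar markers are both highest in control 3 (10.66 and 10.6), and Cyp2e1 and the fat markers are both highest in mutant 2 (8.73 and 12.9).

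The Cyp2c subfamily, whose enzymes make epoxides and hydroxylated products of arachidonic acid and oxidise drugs, lies on mouse chromosome 19. Of its 11 genes, Cyp2c68 alone passed the test, and at an unadjusted p under 0.05 3 were lower and 1 higher. Of all genes 6.85% were lower and 5.24% higher at that p. Cyp2c68 read 7.81, 8.12 and 7.91 in mutants, against 9.28, 9.44 and 9.21 in controls. The groups were far apart and tight within themselves, at 7.95 ± 0.16 in mutants and 9.31 ± 0.12 in controls (SD, n = 3 each). It fell 2.58-fold (log2 difference -1.36 ± 0.12 SE, limma, adjusted p = 0.00584). The call held with any 1 array left out, with adjusted p from 0.0121 to 0.0431.

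Cyp2c65, known as a P450 of the mouse intestine, was higher in the mutants. It read 10.94, 11.12 and 10.90 in mutants, against 10.36, 10.39 and 10.71 in controls. Every mutant lay above every control, yet the difference of 0.50 ± 0.13 SE did not pass the test (limma, adjusted p = 0.168). The probe set of Cyp2c65 carries the mark that Affymetrix gives where probes match more than 1 transcript, and its neighbour Cyp2c66, with a promoter window 77.8% identical, has no reading of its own here. Cyp2c55, known from colon and inducible through CAR and PXR, read 7.84, 8.13 and 7.83 in mutants, against 8.23, 7.67 and 8.13 in controls. The groups overlapped, and the difference was -0.08 with a 95% interval from -0.46 to 0.30.

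Ratios between bright Cyp2c genes on the same arrays did not overlap between the groups. Each ratio holds Cyp2c68 or Cyp2c65, whose own values did not overlap, so the ratios are not independent support. The log ratio of Cyp2c65 to Cyp2c68, less its control mean, was 1.95, 1.82 and 1.82 in mutants, against -0.10, -0.22 and 0.32 in controls, a difference of 1.87. That of Cyp2c55 to Cyp2c68 was higher in mutants by 1.29 and that of Cyp2c55 to Cyp2c65 differed by -0.58, again with no overlap of the groups. An exact two-sided permutation test gave p = 0.1 for each of the 3 ratios, the smallest value that 3 against 3 animals allow. After adjustment over the 10 pairs of bright genes compared within subfamilies it was 0.2. Of these 10 pairs 5 did not overlap, each with a gene whose own values did not overlap. No such share was computed for other gene pairs, so this count is no result about the pairs. The promoter windows of Cyp2c68 and Cyp2c69 were 91.1% identical and those of Cyp2c68 and Cyp2c40 75.1%. Cyp2c69, Cyp2c67 and Cyp2c40, which lie next to Cyp2c68, have no reading of their own here, and whether the Cyp2c68 probe set also reads their transcripts was not tested.

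The 8 dim Cyp2c genes had group means of at most 4.43. Cyp2c29, a CAR target in mouse liver, read 2.43, 2.55 and 2.47 in mutants, against 2.86, 2.83 and 2.96 in controls. Its difference of -0.40 (limma, adjusted p = 0.151) lay wholly below the array median, as did that of Cyp2c50 at -0.29. Cyp2c70, which makes muricholic acids in mouse liver, differed by -0.18. Cyp2c23 and Cyp2c54 differed by -0.40 and -0.14, with overlapping groups. Cyp2c37, Cyp2c38 and Cyp2c39 differed by 0.03, -0.02 and -0.01, with overlapping groups.

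**Figure D3:**
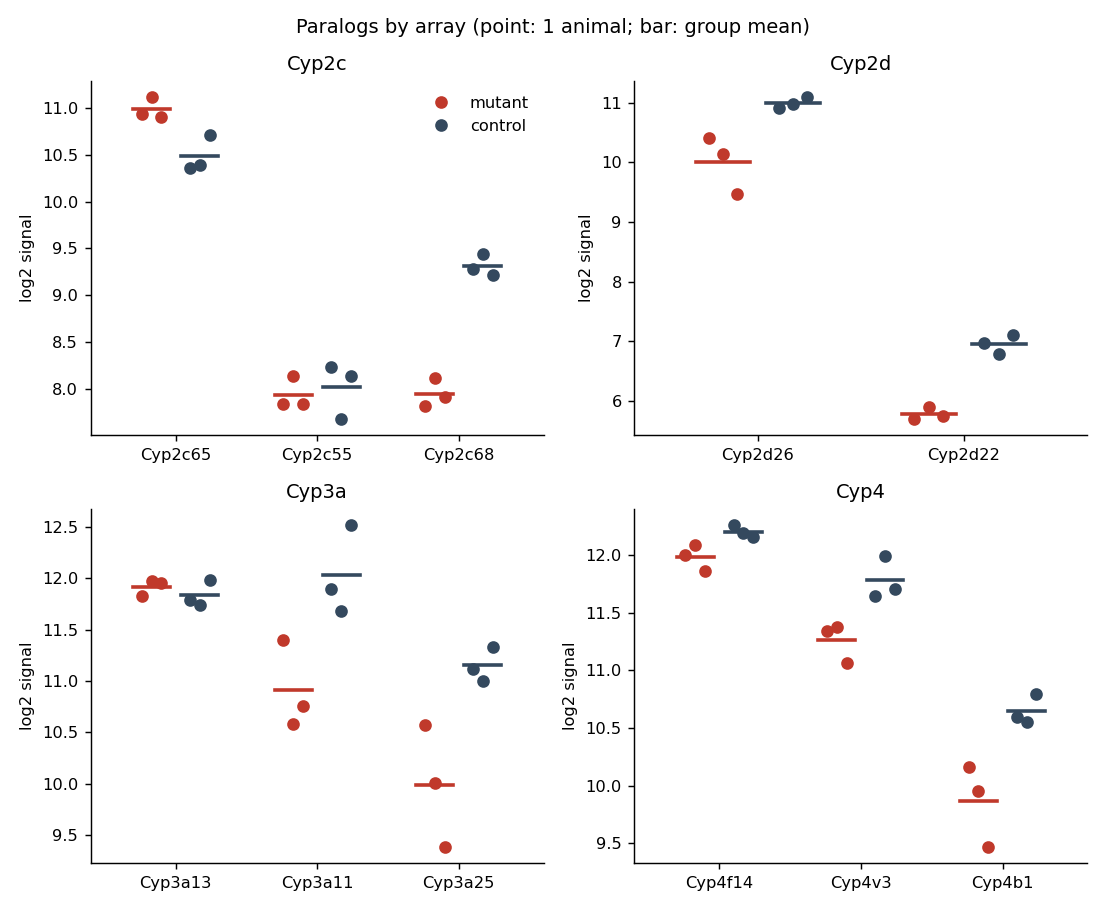
Log2 signal of bright genes in 4 panels (Cyp2c, Cyp2d, Cyp3a, Cyp4), with mutants in red left of controls in dark blue; each point is 1 animal and each bar a group mean. Within Cyp2c and Cyp3a, Cyp2c68, Cyp3a11 and Cyp3a25 lie lower in mutants, while Cyp2c55 and Cyp3a13 overlap and Cyp2c65 lies higher.

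In the Cyp2d subfamily, known for drug and steroid oxidation, Cyp2d22 fell, none rose and 6 of 7 genes did not pass. At an unadjusted p under 0.05, 3 were lower and 0 higher, against 6.85% and 5.24% of all genes. Cyp2d22, often set beside human CYP2D6, read 5.70, 5.89 and 5.74 in mutants, against 6.98, 6.80 and 7.11 in controls. No mutant came near a control, and the gene fell 2.27-fold (log2 difference -1.18 ± 0.12 SE, limma, adjusted p = 0.00756). A second Cyp2d22 probe set differed by -1.21, with 5.21, 5.31 and 5.24 in mutants, against 6.27, 6.53 and 6.60 in controls. Both probe sets therefore show the same separation of the groups. The Cyp2d22 call was lost without control 3 (log2 difference -1.11, adjusted p = 0.0505).

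Cyp2d26 read 10.41, 10.15 and 9.46 in mutants, against 10.91, 10.97 and 11.09 in controls. Its controls were tight, its mutants spread widely with mutant 3 lowest, and the difference of -0.99 ± 0.22 SE did not pass the test (limma, adjusted p = 0.121). With Y-linked expression as a covariate it did (log2 difference -0.99, adjusted p = 0.0436). The Y-linked gene Eif2s3y read 6.53 in mutant 3 and 6.85 in control 1, and at most 2.65 in the other mutants and 2.75 in the other controls. The dim Cyp2d10 differed by -0.39 (limma, adjusted p = 0.17), and Cyp2d40, Cyp2d34, Cyp2d12 and Cyp2d9 by 0.29, -0.20, 0.17 and 0.04.

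Cyp2e1 oxidises ethanol and other small molecules and is known from liver and fat cells. It read 6.96, 8.73 and 5.63 in mutants, against 5.22, 7.36 and 5.09 in controls. The groups overlapped, with mutant 2 and control 2 high, and the difference was 1.22 ± 0.82 SE (limma, adjusted p = 0.632, 95% interval -0.68 to 3.11). The log2 of the summed signal of the 5 measured fat markers was 10.9, 12.9 and 10.3 in mutants 1, 2 and 3. It was 10.7, 11.1 and 10.7 in controls 1, 2 and 3. Mutant 2 and control 2 were thus the highest of their groups in both measures. Of these markers, 4 of 5 had a positive difference and 0 passed the test. The Cyp2e1 difference was 0.41 without mutant 2, 1.96 without mutant 3 and 1.95 without control 2. Without control 3 and mutant 2 together it was 0.0067. The part of fat in the Cyp2e1 values was not tested.

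Among the single-gene subfamilies of family 2, Cyp2s1 was lower without passing the test. Cyp2s1, known from epithelia and from retinoid metabolism, read 8.35, 8.19 and 8.15 in mutants, against 8.61, 8.81 and 8.75 in controls. Its groups did not overlap, and the difference was -0.49 ± 0.11 SE (limma, adjusted p = 0.115). Cyp2u1, a fatty acid hydroxylase, read 6.10, 5.72 and 5.65 in mutants, against 6.12, 6.01 and 5.82 in controls, with overlapping groups and a difference of -0.16. Cyp2j6, of a subfamily that includes arachidonic acid epoxygenases, read 9.22, 9.14 and 9.15 in mutants, against 8.61, 9.49 and 9.16 in controls. The mutants lay within the range of the controls, with a difference of 0.09 and a 95% interval from -0.38 to 0.55. The other 4 Cyp2j genes were dim and differed by between -0.17 and 0.22.

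The remaining genes of family 2 were dim throughout. Cyp2f2, which activates naphthalene in mouse airway, differed by -0.30 (limma, adjusted p = 0.359), with all mutants below all controls. Cyp2r1, the vitamin D 25-hydroxylase, read 2.43 to 2.50 in mutants and 2.43 to 2.52 in controls. Cyp2a12, Cyp2g1, Cyp2b9, Cyp2b13 and Cyp2b19 differed by 0.01, -0.0029, -0.09, 0.08 and -0.15. None of these 3 Cyp2b genes approached the change of Cyp2b10, their relative on chromosome 7, which fell by 4.73 on the log2 scale (limma, adjusted p = 4.94e-06) and stands outside the 52 genes. At signals this close to background a change in the other Cyp2b genes was not detectable.

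The Cyp3a subfamily holds the main drug-oxidising P450 enzymes of mouse liver and gut, controlled by PXR. Of 5 measured genes 0 passed the test, and at an unadjusted p under 0.05 2 were lower and 0 higher. Of all genes 6.85% were lower and 5.24% higher at that p. Cyp3a11 read 11.40, 10.58 and 10.76 in mutants, against 11.90, 11.68 and 12.52 in controls. Each mutant lay below each control, by a difference of -1.12 ± 0.26 SE (limma, adjusted p = 0.14). Its highest control was control 3, the array with the acinar transcripts, and without control 3 the difference was -0.88, within a range from -1.37 to -0.88 as each array was left out. Cyp3a25 read 10.57, 10.00 and 9.38 in mutants, against 11.12, 11.00 and 11.34 in controls. It likewise showed no overlap, and its difference of -1.17 ± 0.27 SE did not pass (limma, adjusted p = 0.129), although it did without mutant 1 (log2 difference -1.46, adjusted p = 0.0427). The Cyp3a25 promoter window was 96.3% identical to that of Cyp3a59, which has no reading of its own here.

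Cyp3a13, known from mouse intestine, did not follow them. It read 11.83, 11.98 and 11.96 in mutants, against 11.79, 11.74 and 11.99 in controls, with a difference of 0.08 and a 95% interval from -0.17 to 0.33. The log ratio of Cyp3a11 to Cyp3a13, less its control mean, was -0.63, -1.60 and -1.40 in mutants, against -0.08, -0.25 and 0.34 in controls. That of Cyp3a13 to Cyp3a25 was 0.57, 1.29 and 1.89 in mutants, against -0.02, 0.06 and -0.03 in controls. Neither ratio overlapped between groups (exact two-sided permutation test, p = 0.1 for each and 0.2 after adjustment over 10 pairs). Each holds Cyp3a11 or Cyp3a25, whose own values did not overlap, so neither ratio is independent support. The ratio of Cyp3a11 to Cyp3a25 overlapped between groups (exact permutation p = 0.9). On chromosome 5 the RefSeq order of P450 genes puts Cyp2w1 between Cyp3a13 and the other Cyp3a genes. The dim genes Cyp3a16 and Cyp3a44, known from fetal or female mouse liver, both differed by -0.04.

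Markers along the gut differed between the same animals. Of 4 measured markers of distal small intestine, 3 had a positive difference and 0 passed the test. The log2 of their summed signal was 10.0 to 10.4 in mutants and 8.09 to 9.85 in controls. Of 4 markers of proximal small intestine, 1 (Onecut2, at -0.93) fell and 0 rose. The log2 of the summed signal of these 4 was 8.30 to 8.56 in mutants and 8.64 to 8.73 in controls. Onecut2 was dim, at 2.85 to 3.04 in mutants and 3.73 to 4.07 in controls. It exceeded the array median on 0 mutant arrays and 1 control array, so this call rests on signal close to background. All 9 measured enterocyte markers had a negative difference, with a median of -0.12, and 0 passed the test. The log2 of their summed signal was 16.2 to 16.3 in mutants and 16.4 in each control, rounded. The part of gut position or enterocyte content in the P450 values was not tested.

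In family 4, 0 of 11 genes passed the test and 2 were lower at an unadjusted p under 0.05, Cyp4b1 and Cyp4v3. Of all genes 6.85% were lower at that p. Cyp4b1, which hydroxylates fatty acids and activates lung toxins, read 10.17, 9.95 and 9.47 in mutants, against 10.60, 10.55 and 10.80 in controls. The groups lay apart and mutant 3 was lowest, with a difference of -0.79 ± 0.18 SE (limma, adjusted p = 0.127). Cyp4v3, the mouse counterpart of the human CYP4V2 gene of a crystalline retinal dystrophy, read 11.34, 11.38 and 11.06 in mutants, against 11.65, 12.00 and 11.70 in controls. Its difference was -0.52 ± 0.14 SE (limma, adjusted p = 0.178), again with no overlap, and a second probe set differed by -0.70.

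The Cyp4f genes, which hydroxylate leukotriene B4 and long-chain fatty acids, did not pass the test. Cyp4f14 read 12.00, 12.09 and 11.86 in mutants, against 12.26, 12.19 and 12.15 in controls. All mutants lay below all controls by a small margin, with a difference of -0.22 (limma, adjusted p = 0.459, 95% interval -0.46 to 0.02). Cyp4f13 differed by -0.33 (limma, adjusted p = 0.475), or by -0.17 without mutant 3, and the dim Cyp4f15 by -0.21, both without overlap, while Cyp4f16, Cyp4f18 and Cyp4f39 differed by -0.02, 0.17 and 0.01. A dimmer Cyp4f16 probe set differed by -0.36, with overlapping groups. The 3 pairs of bright Cyp4f genes overlapped between groups in their ratios. Cyp4a14, a target of PPAR alpha in liver, read 2.40 to 2.66 in mutants and 2.28 to 2.57 in controls. Cyp4a31 and Cyp4x1 were dim too, with differences of 0.04 and -0.02.

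Across the 19 bright genes, mutant 3 was the lowest mutant in 13 and mutant 1 in 4, whereas over the 9096 bright genes mutant 3 was lowest in 39.8% and mutant 1 in 44.8%. In Cyp3a25, Cyp2d26 and Cyp4b1 mutant 3 was lowest and mutant 1 highest of the mutants. Hnf4a itself read 8.83, 8.83 and 9.82 in mutants 1, 2 and 3, against 11.82, 11.76 and 11.57 in controls. Mutant 3 was thus the mutant with the highest Hnf4a signal and most often the lowest P450 signal. This order rests on 1 animal read in 19 genes, and a link to Hnf4a level was not tested. Mutant 3 was also the 1 mutant with Y-linked expression, with Xist at 4.88, against 7.94 and 8.61 in mutants 1 and 2. Sex thus differed among the animals. Y-linked expression was a covariate in an alternative fit of the group difference, but the part of sex in the order of the mutants was not tested. The mean log2 signal of the enterocyte markers was 12.87, 12.88 and 12.72 in mutants 1, 2 and 3, against 13.08, 12.98 and 13.03 in controls 1, 2 and 3, and its part in these values was not tested. No source states whether the Hnf4a probes match the deleted part of the gene.

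**Figure D4:**
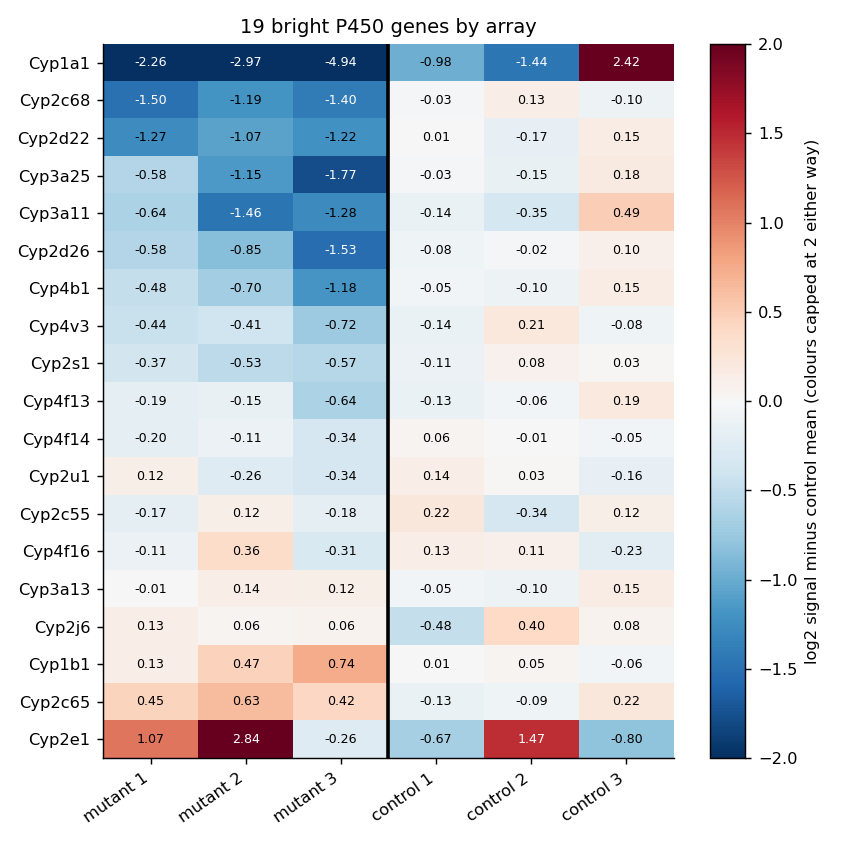
Log2 signal less the control mean for the 19 bright P450 genes (rows, ordered by their mean in mutants) on each array (columns, mutants left of the line and controls right of it). Cyp2c68 and Cyp2d22 are lower by at least 1.07 in each mutant, Cyp1a1 is lower in every mutant but also spreads by several units among controls, and Cyp2c65 is higher in each mutant by at least 0.42.

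The proteins that supply P450 enzymes with electrons and heme were followed as a list of 19 genes, of which 17 were measured. Of these 1 fell, 0 rose and 16 did not pass, with a median of -0.23. Over all genes 0.33% were lower by the same rule. At an unadjusted p under 0.05, 5 of the 17 were lower and 0 higher, against 6.85% and 5.24% of all genes. Of the 17 genes 16 were bright, and of bright genes 10.2% were lower and 7.19% higher at that p. All mutants lay below all controls in 7 of the 17 and above them in 0, against 10.2% and 6.93% of all genes. Cyb5r3, the reductase of cytochrome b5, read 10.34, 10.35 and 10.04 in mutants, against 10.96, 10.95 and 11.20 in controls. It fell by 0.79 ± 0.13 SE on the log2 scale, close to the threshold (limma, adjusted p = 0.0486). Cyb5a, cytochrome b5 itself, read 11.07, 11.02 and 11.08 in mutants, against 11.42, 11.36 and 11.76 in controls, with a difference of -0.46 (limma, adjusted p = 0.195).

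Among 31 measured regulators of P450 genes, 2 fell, 0 rose and 29 did not pass, with a median of -0.11. Over all genes 0.33% were lower and 0.198% higher by the same rule. Those that fell were Hnf4a, at -2.56, and Nr1i3, the gene of CAR, at -1.94. Hnf4a is the gene deleted in the mutants, so its fall was set by the design and is no finding about regulators. At an unadjusted p under 0.05, 10 of the 31 (Hnf4a included) were lower and 3 higher, against 6.85% and 5.24% of all genes. Of the 31 genes 28 were bright, and of bright genes 10.2% were lower and 7.19% higher at that p. All mutants lay below all controls in 9 regulators and above them in 3, against 10.2% and 6.93% of all genes. Nr1i2, the gene of PXR, differed by -0.11 (limma, adjusted p = 0.88) and Ahr by 0.09 (limma, adjusted p = 0.901). Of 7 measured AhR targets outside the P450 genes, 0 passed the test and the median was -0.07. Nqo1 differed by -0.70 (limma, adjusted p = 0.0912), while Ahrr and Tiparp, feedback regulators of AhR, differed by 0.03 and 0.27. Of these 7 targets 3 were dim (Ahrr, Aldh3a1 and Serpinb2).

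Of 19 measured PPAR targets 0 passed, with a median of -0.10 and a range from -1.37 (Acaa1b) to 1.55 (Angptl4). The fatty acid binding protein gene Fabp1 differed by -1.23 (limma, adjusted p = 0.0798). Of 9 measured genes of arachidonic acid release and epoxide hydrolysis 0 passed, with a median of 0.01. Ephx2, the soluble epoxide hydrolase that acts on the epoxides made by Cyp2c and Cyp2j enzymes, differed by -0.55 (limma, adjusted p = 0.181). Pla2g4a, a phospholipase that releases arachidonic acid, differed by 0.51 (limma, adjusted p = 0.175). The 16 measured P450 genes of families 5 and above had 0 past the test, 8 below 0 and 8 above, and a median of 0.0008. In that group Cyp27a1, a mitochondrial sterol hydroxylase, differed by -1.16 (limma, adjusted p = 0.135) and Cyp20a1 by 0.50 (limma, adjusted p = 0.13). At an unadjusted p under 0.05 1 of the 16 was lower and 2 were higher, against 6.85% and 5.24% of all genes.

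**Figure D5:**
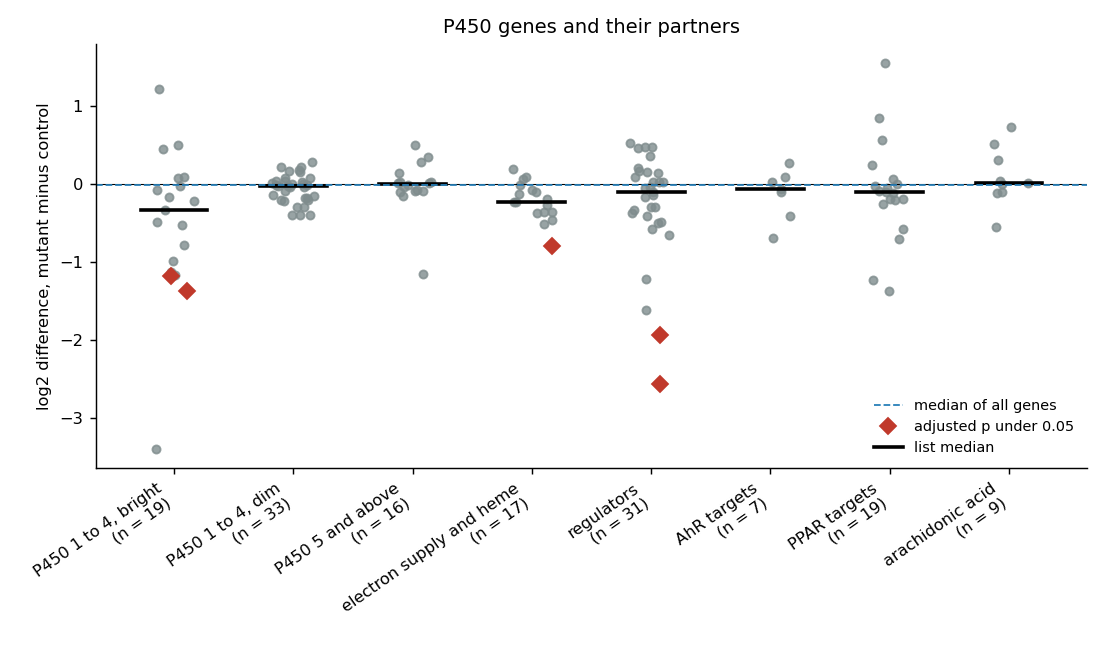
Log2 difference, mutant minus control, of each gene in 8 lists, with the list median as a black bar and the median of all genes as a dashed line; diamonds mark adjusted p under 0.05. The bright P450 genes of families 1 to 4 have a median of -0.33 and the electron supply and heme genes of -0.23, and P450 genes of families 5 and above, of which 14 of 16 are dim, have a median near 0, as do the dim P450 genes of families 1 to 4 at -0.02.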

How the data were processed

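RNA of distal jejunum from 3 mutant and 3 control mice was measured on 1 array each. The deposited table holds log2 signals per probe set, as read from the values (1.80 to 14.5); the authors' background correction and normalisation were not stated in any label used here. Array medians lay between 3.93 and 3.98, so values were used as deposited. After 64 control probe sets were left out, 34945 of 45037 had 1 symbol in the platform annotation. Groups were compared with limma 3.58.1 in R 4.3.3 (lmFit and eBayes, two-sided, Benjamini-Hochberg over 18193 genes), and the number of arrays limits precision. Each p rests on the spread between animals. The fit was tested on simulated data in which 200 genes were changed. It recovered 18.4% of changes of 0.5 on the log2 scale, 74.3% of changes of 1 and 96% of changes of 2. A gene that did not pass is therefore not shown to be unchanged. Values were given for members past the test, for bright members with an unadjusted p under 0.05 or a difference of at least 0.5, and for the brightest of each subfamily. Other genes named were chosen after their values were seen. Members and lists were chosen with earlier results of these data known. Sequences are from RefSeq (GRCm38.p6), and promoter windows were aligned globally with Biopython 1.88. Alternatives covered normalisation, probe set choice, variance models, thresholds and omission of arrays. Same-numbered mutants and controls did not deviate together (correlations 0.07, 0.07 and -0.02), so no pairing was used.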

Additional observations from a re-analysis of the deposited data

How the results depend on the processing

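The 2 lower members of the original fit became 0 with a floor at the 20th percentile (Cyp2c68 at -1.36 and Cyp2d22 at -1.18, adjusted p = 0.102 for each, and 2 genes called in all, where 1271 genes had no value above the floor; the cause was not tested). They also became 0 without control 3 and mutant 2 together (Cyp2c68 at -1.50, adjusted p = 0.139, Cyp2d22 at -1.17, adjusted p = 0.198, and 4 genes called in all, from fewer arrays). With 1 array left out the count of lower members was 1 to 3, the count of higher members 0, the count of all changed genes 22 to 96 (22 without control 3, 24 without control 2 and 41 without mutant 2), and the median of the members -0.12 to -0.04. With the replicate number as a block, 62 genes were called, and Cyp2c68 and Cyp2d22 both passed (adjusted p = 0.0194 and 0.0365). All changed genes numbered 96 in the original fit, 150 with array weights, 196 with Y-linked expression as a covariate, and 248 and 20 at adjusted p under 0.1 and 0.01. The members' median was -0.33 where the 19 bright ones alone were kept. Directions turned only in Cyp4f16 (0.0085 with quantile normalisation, 0.11 with array weights, and -0.21 to 0.12 with 1 array left out), Cyp2c55 (-0.25 to 0.033 with 1 array left out) and Cyp2j6 (-0.15 to 0.29), none of them called. The other 20 of the 23 genes followed kept their sign in every alternative in which they were tested. For Cyp2e1 this holds in name only, since its difference shrank to 0.0067 without control 3 and mutant 2 together. Signal close to background limits what can be said of the 33 dim genes.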

Other observations

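Another 4 probe sets carry several P450 symbols, and none was called (limma, adjusted p from 0.691 to 0.994 over all probe sets). The probe set for Cyp3a41a and Cyp3a41b, known from female mouse liver, read 2.65, 2.49 and 2.42 in mutants, against 2.61, 2.58 and 3.08 in controls. That for Cyp2a4 and Cyp2a5, steroid and coumarin hydroxylases, differed by -0.0045 and that for Cyp4a10 and Cyp4a31 by -0.14, both close to background. The probe set shared by Cyp4f16 and Cyp4f37 read 8.64, 9.39 and 8.57 in mutants, against 9.48, 9.05 and 8.90 in controls, with overlapping groups. Cyp4a12a, whose symbol ends in a letter and so falls outside the rule, was dim and differed by 0.11, and the transcribed pseudogene Cyp2d13 differed by -0.11.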
